A study of Arabidopsis thaliana with 9 samples.

Results

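The basic helix-loop-helix (bHLH) regulators of cell elongation were examined in 4-d-old *Arabidopsis thaliana* seedlings grown in constant red light. The set holds 10 genes of the 33602 in the data: the 6 PRE genes (*PRE1* to *PRE6*), *IBH1*, *HBI1*, *BEE1* and *BEE2*. They were taken by locus identifier and were chosen with earlier results of these data known. RNA was sequenced from whole seedlings of 3 genotypes, the wild type Col-0 and the mutants *bbx11-1* and *pif4-2*, all in the same light of 94 μmol/m2/s and with 3 replicates each, which gave 9 libraries. *bbx11-1* is a mutant of *BBX11*, a B-box zinc finger protein, and *pif4-2* is a mutant of *PIF4*, a bHLH transcription factor that promotes hypocotyl elongation and binds the red light photoreceptor phyB. The study asked which genes *BBX11* and *PIF4* regulate in red light. Each mutant was represented by 1 allele, and no line complemented with the gene was sequenced. The labels call the Col-0 libraries the control for *BBX11*, and the same libraries served here as the control for *pif4-2*. Whether the *pif4-2* libraries were prepared together with the others is not stated in the sources used here. For a difference of *pif4-2* from the other genotypes, the mutation and a separate preparation therefore cannot be told apart. The study's methods describe the replicates as biological and independent, and the labels do not say what a replicate number marks.

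PRE proteins are small helix-loop-helix proteins that lack the basic, DNA-contacting region and promote elongation by pairing with inhibitors of the same fold. *IBH1* is such an inhibitor: it binds *HBI1* and *BEE2*, which are DNA-binding bHLH proteins that promote elongation, and PRE proteins take *IBH1* away from them. *BEE1* and *BEE2* were named as genes enhanced by brassinosteroid, and the PRE genes respond to brassinosteroid, gibberellin and auxin. *PRE6* is also known as KIDARI and pairs with *HFR1*, an inhibitor of PIF proteins. *PRE3* is also known as ATBS1 and TMO7.

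The genes lie apart from each other in the TAIR10.1 genome, and none of the 10 overlaps another annotated gene. The 6 PRE genes have 2 exons each and coding sequences of 279 to 285 nt, whereas *IBH1* has 1 exon and a coding sequence of 471 nt, and *HBI1*, *BEE1* and *BEE2* have coding sequences of 1095, 783 and 915 nt. *PRE1* (AT5G39860) spans chr5:15957368-15958559 on the plus strand, *PRE2* (AT5G15160) chr5:4921243-4922812 on the minus strand and *PRE3* (AT1G74500) chr1:27997919-27998821 on the minus strand. *PRE4* (AT3G47710) spans chr3:17590544-17591670 on the plus strand, *PRE5* (AT3G28857) chr3:10855623-10856787 on the minus strand and *PRE6* (AT1G26945) chr1:9351160-9352833 on the plus strand. *IBH1* (AT2G43060) spans chr2:17909007-17910210 on the plus strand, 19.9 kb from *PIF4*, and *HBI1* (AT2G18300) chr2:7952404-7954785 on the minus strand. *BEE1* (AT1G18400) spans chr1:6331398-6333856 and *BEE2* (AT4G36540) chr4:17243583-17245296, both on the plus strand.

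The coding sequences of the PRE genes were 62.5% to 84.6% identical over the 15 pairs (median 67.7%), and *PRE1* and *PRE5* were the closest pair. Their 279-base coding sequences, read 5′ to 3′ from TAIR10.1, are shown with the 43 bases that differ between them in capitals. Reads within the coding sequences of *PRE1* and *PRE5* have to be told apart at these bases.
PRE1: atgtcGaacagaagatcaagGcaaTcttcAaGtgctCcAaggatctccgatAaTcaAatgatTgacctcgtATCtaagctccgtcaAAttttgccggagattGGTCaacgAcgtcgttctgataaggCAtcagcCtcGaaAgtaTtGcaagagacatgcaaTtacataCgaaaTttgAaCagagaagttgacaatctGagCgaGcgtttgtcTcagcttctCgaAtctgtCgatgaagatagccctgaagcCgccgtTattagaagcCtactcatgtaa
PRE5: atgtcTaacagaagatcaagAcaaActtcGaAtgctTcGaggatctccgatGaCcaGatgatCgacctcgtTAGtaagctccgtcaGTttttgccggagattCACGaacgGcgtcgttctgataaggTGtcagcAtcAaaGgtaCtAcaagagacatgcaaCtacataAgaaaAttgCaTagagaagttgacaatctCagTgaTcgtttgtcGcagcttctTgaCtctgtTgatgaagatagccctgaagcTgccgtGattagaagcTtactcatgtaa
The longest run identical in both was 20 bases. The transcripts of the 10 genes shared no identical stretch of more than 39 nt with any other place in the genome, and *HBI1* and *BEE2* shared 32 nt with each other.

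PIF proteins bind the G-box (CACGTG) and the PBE-box (CATGTG), and the brassinosteroid factor *BZR1* binds CGTGTG and CGTGCG. Both strands of the 300 bases before the annotated start of each gene were searched for these 4 motifs, which do not overlap in the members. CACGTG was in 7.09% of 27443 such windows in the genome and in 2 of the 10 genes, *PRE2* and *BEE1*, and CATGTG was in 13.1% of windows and in 3 genes, *PRE4*, *PRE6* and *BEE2*. CGTGTG was in 6.11% of windows and in *HBI1* alone of the 10, and CGTGCG was in 1.78% of windows and in none of the 10. The 170 bases that end at the annotated start are printed 5′ to 3′ on the strand of the gene, with these motifs in capitals, for 5 genes to which the comparisons of the genotypes return. They are *PRE1* (chr5:15957198-15957367, plus strand), *PRE2* (chr5:4922813-4922982, minus strand), *PRE4* (chr3:17590374-17590543, plus strand), *PRE6* (chr1:9350990-9351159, plus strand) and *BEE2* (chr4:17243413-17243582, plus strand).
PRE1: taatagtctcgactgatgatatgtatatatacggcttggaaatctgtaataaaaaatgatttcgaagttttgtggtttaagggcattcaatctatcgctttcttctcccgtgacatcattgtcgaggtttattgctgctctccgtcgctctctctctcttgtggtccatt
PRE2: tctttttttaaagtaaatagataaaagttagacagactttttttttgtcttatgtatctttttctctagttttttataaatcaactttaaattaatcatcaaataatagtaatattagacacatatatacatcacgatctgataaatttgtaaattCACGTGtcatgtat
PRE4: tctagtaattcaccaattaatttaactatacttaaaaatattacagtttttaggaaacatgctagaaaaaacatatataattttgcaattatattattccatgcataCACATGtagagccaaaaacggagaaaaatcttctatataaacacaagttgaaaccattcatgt
PRE6: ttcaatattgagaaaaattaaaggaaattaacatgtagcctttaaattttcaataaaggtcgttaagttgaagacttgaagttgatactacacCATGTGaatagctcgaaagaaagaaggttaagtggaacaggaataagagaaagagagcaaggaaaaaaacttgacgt
BEE2: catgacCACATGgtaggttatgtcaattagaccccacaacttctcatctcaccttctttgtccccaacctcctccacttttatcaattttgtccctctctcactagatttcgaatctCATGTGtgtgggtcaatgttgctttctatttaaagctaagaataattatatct
Counted from the base before the start as -1, the CACGTG of *PRE2* begins at -14 and the CATGTG of *PRE4* and *PRE6* begins at -63 and -77. *BEE2* holds CATGTG at -164 and -53, and *BEE1*, not printed, holds CACGTG at -136. A match describes the letters only, and no binding was measured here.

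The deposited values are FPKM, fragments scaled to gene length and to the reads of the library. From the spacing of low values in genes under 500 nt, the libraries held an estimated 16.2 to 22.0 M reads (M, the SI prefix mega), with Col-0 at 16.2 to 17.6 M and *pif4-2* at 18.65 to 22.0 M. Green tissue markers (*RBCS1A*, *CAB3*, *LHB1B1*) summed to between 21170 and 26580 FPKM and 4 root markers to between 30.8 and 46.9 FPKM. The flower genes AG and AP1 summed to at most 0.17 FPKM, whereas the seed genes *CRA1* and *EM6* summed to between 16.7 and 43.8 FPKM. The profile thus held green tissue and root transcripts with almost no flower transcripts, and seed transcripts were still present. *BBX11* was at 15.7, 16.4 and 78.2 FPKM in Col-0 and at 10.7, 9.39 and 7.66 FPKM in *bbx11-1*. The log2 difference of -1.52 (SE 0.46) did not pass the test (limma adjusted p = 0.231). Col-0 replicate 3, at 78.2 FPKM, stood far above every other library for this gene, with *pif4-2* between 15.65 and 17.04 FPKM. The size of the *BBX11* difference and its spread therefore depend on that library. The FPKM of *PIF4* ran from 25.7 to 35.2 over the Col-0 libraries and from 16.3 to 17.5 over those of *pif4-2*, a log2 difference of -0.82 (limma adjusted p = 0.00121). Replicate 1 of Col-0 and of *bbx11-1* stood apart from the other libraries of their genotypes on the first principal component (30.03 and 22.06, against 0.55 to 6.73), so results are also given without both. The *pif4-2* libraries lay at -23.19 to -20.77 there. The second component placed these libraries on the side of *pif4-2*, at 17.66 (Col-0) and 14.76 (*bbx11-1*) against 7.97 to 11.43. The other Col-0 and *bbx11-1* libraries lay at -17.02 to -13.28. Leaving both out thus removes the libraries of their genotypes farthest from *pif4-2* on the first component and nearest to it on the second.

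Log2(FPKM + 0.5) was compared with limma in one fit of all 9 libraries, and p-values were adjusted by the Benjamini-Hochberg method over the 19169 genes whose mean reached 1 FPKM in any genotype. A gene passed the test at an adjusted p below 0.05, and the study's fold threshold of 2 was applied as well where stated. Fold changes are on the log2(FPKM + 0.5) scale, which understates the changes of weakly expressed genes. Of the 10 genes, 9 entered the test. *PRE5* stayed below the filter in every genotype, and *PRE4* entered only through its level in *pif4-2*.

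In Col-0 the transcripts spanned from below 1 FPKM to about 60 FPKM. *HBI1* (60.4 ± 3.08 FPKM, SD, n = 3) and *BEE2* (57.1 ± 3.99 FPKM, SD, n = 3) were the most abundant, and their ranges overlapped. *PRE6* (17.4 ± 2.16 FPKM, SD, n = 3) was the most abundant PRE gene and overlapped *BEE1* (13.4 ± 1.97 FPKM, SD, n = 3). *IBH1* (8.14 ± 0.69 FPKM, SD, n = 3), *PRE3* (7.79 ± 0.95 FPKM, SD, n = 3) and *PRE2* (7.15 ± 1.63 FPKM, SD, n = 3) overlapped as neighbours in the order. *PRE1* followed at 2.86 ± 0.91 FPKM (SD, n = 3), apart from both its neighbours. *PRE5* (0.80 ± 0.35 FPKM, SD, n = 3) and *PRE4* (0.78 ± 0.45 FPKM, SD, n = 3) were lowest and overlapped. In *bbx11-1* the same neighbours overlapped at the top, with *BEE2* ahead of *HBI1*. In *pif4-2*, *BEE1*, *PRE3*, *PRE6* and *IBH1* overlapped as neighbours between 6.03 and 11.01 FPKM, and *PRE4* stood above *PRE1* without overlap. Gene lengths used for FPKM are not given in the sources used here. The values of *PRE4* were closest to whole reads at a length of 282 nt, near its coding length of 279 nt and under its annotated transcript of 679 nt. The length was left free in that match, no chance level was computed for it, and other lengths were not excluded. The level of *PRE4* relative to the other genes depends on the length used.

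**Figure D1:**
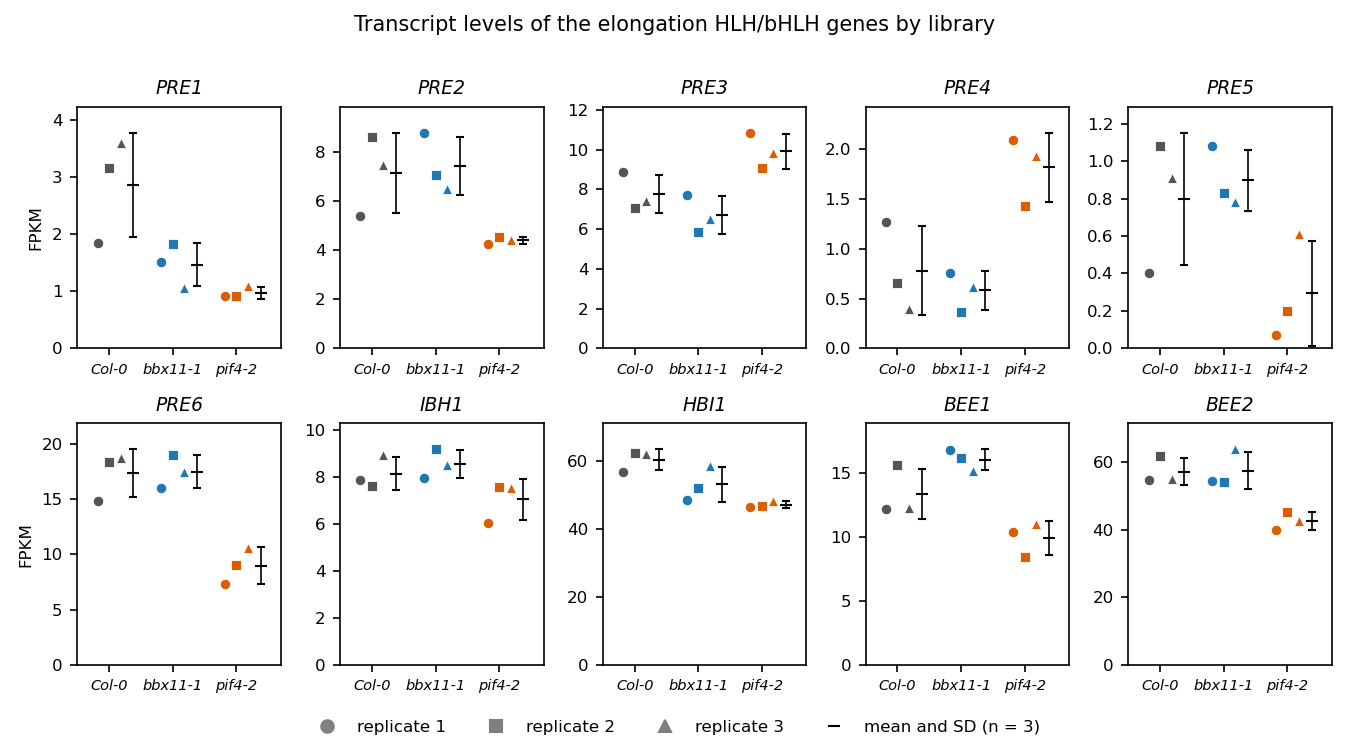
FPKM (y axis, linear from 0, a separate scale for each gene) of the 10 genes in each library of Col-0, *bbx11-1* and *pif4-2*; symbols give the replicate number, and the bar beside them gives the mean and SD of 3 libraries. *PRE6* lies between 7.32 and 10.63 FPKM in *pif4-2* and between 14.87 and 19.0 FPKM in the other libraries, while *PRE3* and *PRE4* are highest in *pif4-2*.

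In *pif4-2*, 5 of the 9 tested genes were lower than in Col-0: *PRE1*, *PRE2*, *PRE6*, *HBI1* and *BEE2*, with no gene passing as higher. An adjusted p below 0.05 was reached by 4.84% of all tested genes in this comparison, by 1.95% as lower and by 2.88% as higher. At an unadjusted p below 0.05 there were 8 of the 9 (all but *IBH1*), against 16.6% of tested genes. With the fold threshold of 2 added, *PRE1* alone was called, against 1.13% of tested genes. The median log2 fold change of the 9 genes was -0.41, against -0.02 over all tested genes. The libraries of *pif4-2* and Col-0 did not overlap for 9 of the 10 genes, 7 lower and 2 higher in *pif4-2*, and overlapped for *PRE5*, whereas 22.3% of tested genes did not overlap (12.1% lower, 10.2% higher). *PRE4*, 1 of the 2 higher, passed the filter only because it was high in *pif4-2*, so its place in these counts follows in part from the filter. In bulk seedlings, fewer cells that express a gene and less RNA per cell cannot be told apart.

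*PRE6*, the most abundant PRE gene, was nearly halved in *pif4-2*. Its levels were 14.87, 18.42 and 18.78 FPKM in Col-0, 16.02, 19.00 and 17.44 FPKM in *bbx11-1*, and 7.32, 9.02 and 10.63 FPKM in *pif4-2*. Every *pif4-2* library lay below every library of the other genotypes, which overlapped each other. The log2 fold change in *pif4-2* was -0.92 (SE 0.13, 1.89-fold lower, limma adjusted p = 0.00291). *PRE6* passed the test under all 20 alternatives tried, leaving out each library included.

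*PRE1*, which promotes elongation when overexpressed, was at 1.84, 3.15 and 3.59 FPKM in Col-0, 1.52, 1.82 and 1.06 FPKM in *bbx11-1*, and 0.91, 0.92 and 1.09 FPKM in *pif4-2*. Both mutants lay below every Col-0 library, and they overlapped each other at 1.06 and 1.09 FPKM. For *bbx11-1* the gap, 1.82 against 1.84 FPKM, was smaller than 1 read (0.06 FPKM in *bbx11-1* replicate 2 at the annotated length). The log2 fold change in *pif4-2* was -1.15 (SE 0.23, 2.22-fold lower, limma adjusted p = 0.0136). At the annotated length its values correspond to 14.5 to 54.1 reads, so counting error was part of the spread. At 708 nt, the length that best matches whole reads, they correspond to 12 to 45 reads. The adjusted p rose to at most 0.0588 without Col-0 replicate 2 or 3 or without *pif4-2* replicate 1 or 2, and in each of these *PRE1* no longer passed.

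*PRE2* was at 5.39, 8.61 and 7.46 FPKM in Col-0, 8.78, 7.06 and 6.51 FPKM in *bbx11-1*, and 4.24, 4.55 and 4.41 FPKM in *pif4-2*. The *pif4-2* libraries were close together and below the rest, with Col-0 replicate 1 nearest to them. The log2 fold change of -0.62 (SE 0.16, 1.54-fold lower) was just inside the threshold (limma adjusted p = 0.0482). It no longer passed in 4 of the 9 alternatives that kept all libraries (no filter, median-of-ratios scaling, quantile normalization and no intensity trend), nor when only Col-0 and *pif4-2* were fitted, nor without Col-0 replicate 2 or 3, *bbx11-1* replicate 2 or 3 or any 1 of the *pif4-2* libraries, with adjusted p of up to 0.158.

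*PRE3* and *PRE4* had their highest values in *pif4-2*, the opposite side from *PRE1*, *PRE2* and *PRE6*, but neither passed the test against Col-0. *PRE3* was at 8.86, 7.07 and 7.43 FPKM in Col-0, 7.74, 5.87 and 6.49 FPKM in *bbx11-1*, and 10.85, 9.09 and 9.83 FPKM in *pif4-2*, with a log2 fold change in *pif4-2* of 0.33 (SE 0.12, limma adjusted p = 0.182). *PRE4* was at 1.27, 0.66 and 0.40 FPKM in Col-0, 0.76, 0.37 and 0.62 FPKM in *bbx11-1*, and 2.09, 1.43 and 1.93 FPKM in *pif4-2*, with a log2 fold change of 0.91 (SE 0.27, limma adjusted p = 0.0893). At the length that best matches whole reads, *PRE4* rested on 2 to 6 reads per library in Col-0, 2 to 4 in *bbx11-1* and 8 to 12 in *pif4-2*. At its annotated length the values correspond to 4.8 to 14.7 reads in Col-0, 4.9 to 9.6 in *bbx11-1* and 19.5 to 28.8 in *pif4-2*. With no filter on low values its limma adjusted p was 0.140. It fell to 0.0240 without Col-0 replicate 1, which is the highest Col-0 library of *PRE4*, so that value is no support for a difference. Without replicate 1 of both Col-0 and *bbx11-1*, *PRE3* had a log2 fold change of 0.42 (limma adjusted p = 0.0437). That fit left out the highest Col-0 library of *PRE3* (8.86 FPKM), which lay on the *pif4-2* side of the second principal component. *PRE4* passed there too (log2 1.17, limma adjusted p = 0.0146), again without its highest Col-0 library.

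*PRE5* was at 0.40, 1.08 and 0.91 FPKM in Col-0, 1.08, 0.83 and 0.78 FPKM in *bbx11-1*, and 0.07, 0.20 and 0.61 FPKM in *pif4-2*. Its *pif4-2* and Col-0 libraries overlapped, and its values correspond to at most 15 reads at the length that best matches whole reads. Tested without a filter on low values, its log2 fold change in *pif4-2* was -0.73 (limma adjusted p = 0.293). Its *bbx11-1* libraries lay above its *pif4-2* libraries without overlap, and the log2 difference between them did not pass either (0.87, limma adjusted p = 0.247 without a filter).

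*HBI1* and *BEE2*, which encode DNA-binding bHLH proteins, were lower in *pif4-2* by smaller factors. *HBI1*, whose product activates expansin genes, was at 56.86, 62.35 and 62.02 FPKM in Col-0, 48.64, 52.24 and 58.66 FPKM in *bbx11-1*, and 46.60, 46.74 and 48.31 FPKM in *pif4-2*. Each *pif4-2* library was below every Col-0 library, and *bbx11-1* lay between them and overlapped Col-0. The log2 fold change in *pif4-2* was -0.35 (SE 0.08, 1.28-fold lower, limma adjusted p = 0.0293). Under median-of-ratios scaling or without the intensity trend *HBI1* no longer passed, nor without Col-0 replicate 2 or 3 or any 1 of the *pif4-2* libraries (adjusted p of up to 0.121).

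*BEE2* was at 54.68, 61.74 and 54.98 FPKM in Col-0, 54.35, 54.26 and 63.80 FPKM in *bbx11-1*, and 40.05, 45.40 and 42.46 FPKM in *pif4-2*. The *pif4-2* libraries were below all others, and Col-0 and *bbx11-1* overlapped. The log2 fold change in *pif4-2* was -0.42 (SE 0.09, 1.34-fold lower, limma adjusted p = 0.0198), and it was lost without Col-0 replicate 2 or without *pif4-2* replicate 1 or 3 (adjusted p of up to 0.102). *BEE1* was at 12.23, 15.64 and 12.24 FPKM in Col-0, 16.80, 16.16 and 15.17 FPKM in *bbx11-1*, and 10.40, 8.46 and 11.01 FPKM in *pif4-2*. Its log2 fold change in *pif4-2* of -0.41 (SE 0.12) did not pass (limma adjusted p = 0.0921), although the groups did not overlap.

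*IBH1*, the inhibitor, was at 7.87, 7.62 and 8.92 FPKM in Col-0, 7.96, 9.17 and 8.52 FPKM in *bbx11-1*, and 6.03, 7.58 and 7.51 FPKM in *pif4-2*. Its highest *pif4-2* library lay just under its lowest Col-0 library. The log2 fold change in *pif4-2* was -0.20 with a 95% interval from -0.44 to 0.04 (limma adjusted p = 0.418), so a decrease of that size was not distinguished from none.

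**Figure D2:**
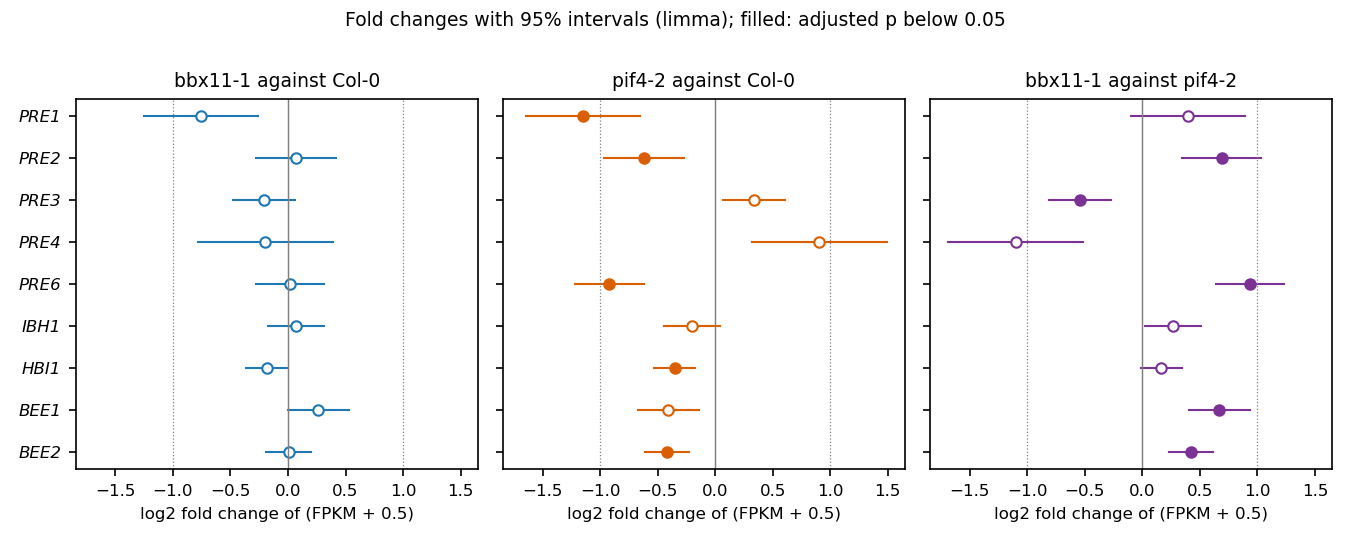
Log2 fold change of (FPKM + 0.5) on the x axis for the 9 tested genes in 3 comparisons; lines are 95% intervals from limma, filled points have an adjusted p below 0.05, and dotted lines mark a fold change of 2. *PRE1* in *pif4-2* against Col-0 (-1.15) is the filled point beyond a dotted line, and no point is filled in *bbx11-1* against Col-0.

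In *bbx11-1*, none of the 9 tested genes passed the test against Col-0, where 0.443% of all tested genes passed, and 0.146% with the fold threshold. At an unadjusted p below 0.05 there were 2 of the 9 (*PRE1* and *HBI1*), against 10.7% of tested genes. *PRE1* had the widest difference, with a log2 fold change of -0.75 (SE 0.23, 95% interval -1.25 to -0.26, limma adjusted p = 0.223). It was the 1 gene of 9 whose *bbx11-1* and Col-0 libraries did not overlap (12.6% of tested genes, 5.81% lower and 6.78% higher). The gap for *PRE1*, 1.82 against 1.84 FPKM, was smaller than 1 read. *HBI1* had a log2 fold change of -0.19 (SE 0.08, limma adjusted p = 0.439) and *BEE1* of 0.26 (SE 0.12, limma adjusted p = 0.472). For the other genes lower in *pif4-2*, the 95% intervals in *bbx11-1* were -0.28 to 0.41 for *PRE2*, -0.28 to 0.31 for *PRE6*, -0.36 to -0.01 for *HBI1* and -0.19 to 0.20 for *BEE2*. The median of the 9 genes was 0.01, against 0.003 over all tested genes. Same-numbered libraries of Col-0 and *bbx11-1* deviated together, and when this number was fitted as a block again none of the 9 passed (adjusted p = 0.172 for *PRE1* from limma).

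Set directly against each other, *bbx11-1* was higher than *pif4-2* in *PRE2*, *PRE6*, *BEE1* and *BEE2* and lower in *PRE3*. These 5 of 9 genes compare with 2.32% of all tested genes (1.42% higher and 0.902% lower in *bbx11-1*), and with the fold threshold none of the 9 was called, against 0.636% of tested genes. The libraries of *bbx11-1* and *pif4-2* did not overlap for 8 of the 9 genes, 6 higher and 2 lower in *bbx11-1*, where 23.3% of tested genes did not overlap (13.5% higher, 9.8% lower). *PRE4*, 1 of the 2 lower, was again there only through its level in *pif4-2*. This comparison shares the *pif4-2* libraries with the one against Col-0, so it is no separate sample of *pif4-2*. *PRE6* had the largest difference among those that passed (log2 0.93, SE 0.13, limma adjusted p = 0.00518), and it passed under all 20 alternatives. *PRE2* followed at a log2 of 0.69 (SE 0.16, limma adjusted p = 0.0485), *BEE1* at 0.67 (SE 0.12, limma adjusted p = 0.0166), *PRE3* at -0.54 (SE 0.12, limma adjusted p = 0.0477) and *BEE2* at 0.42 (SE 0.09, limma adjusted p = 0.0317). *PRE4* was 2.15-fold lower in *bbx11-1* than in *pif4-2* (log2 -1.10, SE 0.27) and did not pass (limma adjusted p = 0.0596). *PRE1*, *HBI1* and *IBH1* did not pass, with log2 differences of 0.40, 0.17 and 0.27.

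Processing choices and single libraries ended all of these calls except that of *PRE6*. With no filter on low values *PRE2*, *PRE3*, *BEE1* and *BEE2* no longer passed (limma adjusted p = 0.125, 0.110, 0.0540 and 0.0668). Median-of-ratios scaling ended the calls of *PRE2* and *BEE2*, the fit without the intensity trend those of *PRE2*, *PRE3* and *BEE2*, and quantile normalization or a pseudocount of 1 that of *PRE2*. *BEE1* was lost without *bbx11-1* replicate 2 or *pif4-2* replicate 1 or 2, with adjusted p of up to 0.0611. *BEE2* was lost without *bbx11-1* replicate 2 or 3 or any 1 of the *pif4-2* libraries (up to 0.155). *PRE3* was lost without Col-0 replicate 3, *bbx11-1* replicate 2 or 3 or any 1 of the *pif4-2* libraries (up to 0.203), and *PRE2* without Col-0 replicate 3 or any 1 library of either mutant (up to 0.176). The seed genes *CRA1* and *EM6* summed to between 34.6 and 43.8 FPKM in *bbx11-1* and between 16.7 and 27.8 FPKM in *pif4-2*. Col-0 lay between 21.8 and 40.3 FPKM. *EM6* was higher in *bbx11-1* than in *pif4-2* (log2 1.20, limma adjusted p = 0.0305). The part of *CRA1* and *EM6* in the differences between the mutants was not tested. Over the 3 genotypes together, an F test passed for 5 of the 9 genes (*PRE1*, *PRE2*, *PRE6*, *BEE1* and *BEE2*), against 4.65% of tested genes.

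Summed over the 6 PRE genes, the transcript level was 32.63, 38.99 and 38.57 FPKM in Col-0, 35.9, 34.95 and 32.9 FPKM in *bbx11-1*, and 25.48, 25.21 and 28.5 FPKM in *pif4-2*. The sum was lower in each *pif4-2* library than in any other library, and its make-up differed too. *PRE6* held 45.6% to 48.7% of the sum in Col-0, 44.6% to 54.4% in *bbx11-1* and 28.7% to 37.3% in *pif4-2*. *PRE3* held 18.1% to 27.2%, 16.8% to 21.6% and 34.5% to 42.6%, so the ratio of *PRE3* to *PRE6* was 0.38 to 0.60 in Col-0, 0.31 to 0.48 in *bbx11-1* and 0.92 to 1.48 in *pif4-2*. *HBI1*, *BEE1* and *BEE2* together gave sums of 123.8 to 139.7 FPKM for Col-0, 119.8 to 137.6 for *bbx11-1* and 97.1 to 101.8 for *pif4-2*. Relative to *IBH1*, the PRE sum was 4.15 to 5.12 in Col-0, 3.81 to 4.51 in *bbx11-1* and 3.33 to 4.23 in *pif4-2*, and these ranges overlapped between all genotypes. The sums follow from the genes already described and were not tested.

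**Figure D3:**
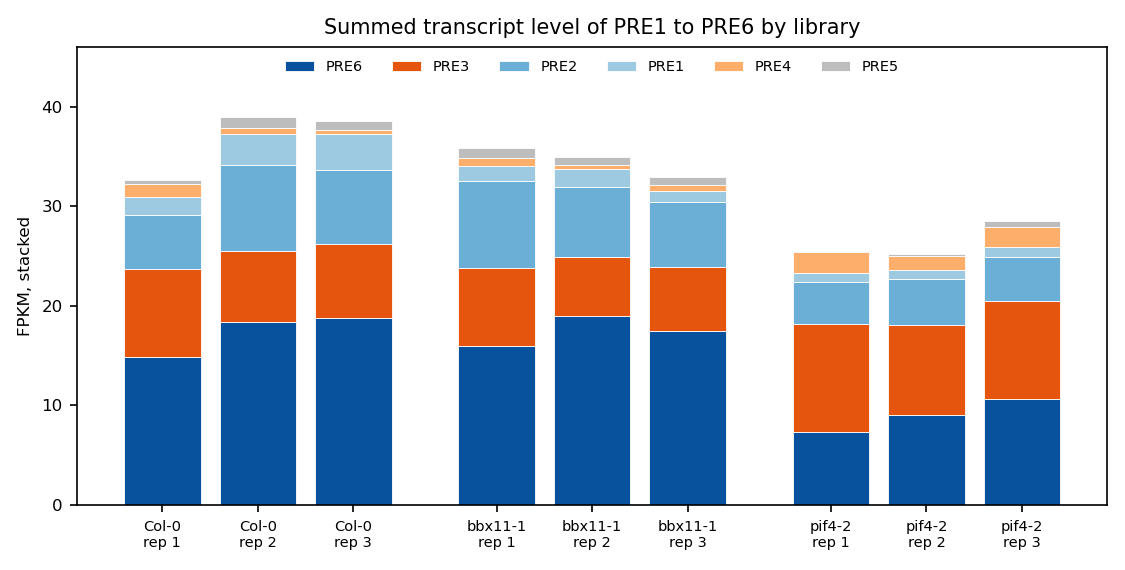
Stacked FPKM (y axis, linear from 0) of the 6 PRE genes in each of the 9 libraries; each colour is 1 gene and the full bar is their sum. The bars of *pif4-2* end between 25.21 and 28.5 FPKM, below the 32.63 to 38.99 FPKM of the other libraries, and the *PRE6* block is smallest there while the *PRE3* block is largest.

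Genes of the same pathway were counted from lists chosen for their roles, with earlier results of these data known. Of 14 related HLH and bHLH genes, 13 were tested and *CIB1* was listed at 0 in every library. In *pif4-2*, 3 of the 13 were lower than in Col-0 and none was higher, with a median log2 fold change of -0.32. Over all tested genes, 1.95% were lower and 2.88% higher in this comparison, and the median was -0.02. *HFR1*, the inhibitor of PIF proteins with which *PRE6* pairs, was at 6.30, 7.42 and 7.60 FPKM in Col-0 and at 2.42, 2.06 and 1.65 FPKM in *pif4-2* (log2 -1.59, limma adjusted p = 3.2e-04). *AIF4*, which encodes an HLH protein of the group that interacts with *PRE3*, had a log2 fold change of -0.59 (limma adjusted p = 0.00794). *IBL1*, a homologue of *IBH1*, had a log2 fold change of -0.47 (limma adjusted p = 0.0179). *BEE3*, the third gene of the BEE group, was at 17.95, 23.9 and 20.8 FPKM in Col-0 and at 14.7, 16.1 and 19.1 FPKM in *pif4-2* and did not pass (log2 -0.32, limma adjusted p = 0.263).

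Of 11 regulators of these genes or their products, 2 were lower in *pif4-2* and none was higher (median log2 -0.19), against the same 1.95% and 2.88% of all tested genes. These were *PIF4*, the mutated gene itself, and *PIF1*, another PIF gene, which ran from 16.9 to 17.3 FPKM over Col-0 and from 12.1 to 12.8 FPKM over *pif4-2* (log2 -0.44, limma adjusted p = 0.0146). The brassinosteroid factor genes *BZR1* and *BES1*, the auxin response factor genes *ARF6*, *ARF7* and *ARF8*, and the DELLA genes *RGA* and *GAI* did not pass. Of 10 cell expansion genes, 3 were lower in *pif4-2* and 1 was higher (median log2 -0.52), against 1.95% and 2.88% of all tested genes and a median of -0.02. *EXPA1*, an expansin gene, ran from 160.2 to 193.2 FPKM over Col-0 and from 81.2 to 94.1 FPKM over *pif4-2* (log2 -0.999, limma adjusted p = 4.0e-04). *EXPA11* had a log2 fold change of -0.92 (limma adjusted p = 0.00251) and *XTH17*, a wall-modifying enzyme gene, of -0.81 (limma adjusted p = 0.0334). *XTH22*, also known as the touch-induced TCH4, was higher, at 57.1, 110.2 and 71.5 FPKM in Col-0 and 279.9, 258.6 and 227.0 FPKM in *pif4-2* (log2 1.72, limma adjusted p = 4.8e-04). In *bbx11-1*, no gene of the 3 lists passed against Col-0, where 0.443% of all tested genes passed.

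**Figure D4:**
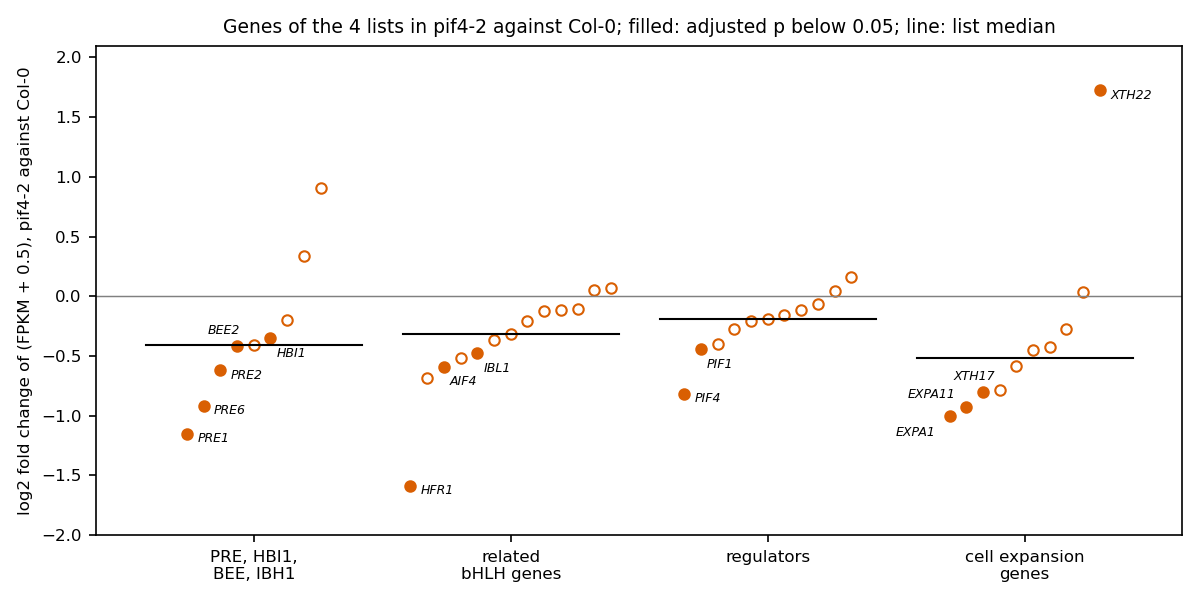
Log2 fold change of (FPKM + 0.5) in *pif4-2* against Col-0 (y axis) for each tested gene of 4 lists (x axis), ordered within a list; filled points have an adjusted p below 0.05 in limma and the black line is the list's median. Filled points lie below 0 in every list except *XTH22* at 1.72, and the medians are -0.41, -0.32, -0.19 and -0.52 from left to right.

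For each gene that passed the F test, the genes outside the set with the closest pattern were taken by Pearson's r over the 9 libraries on the log2(FPKM + 0.5) scale. The 9 points share 3 genotypes, and these values are a description. The closest to *PRE6* were *ENODL19* (r = 0.998), AT5G22580 (r = 0.989) and AT1G80130 (r = 0.985), and the closest to *PRE2* were *MLS* (r = 0.982), AT2G47780 (r = 0.962) and AT3G42800 (r = 0.958). *ENODL19* averaged 84.6 FPKM in Col-0, 84.9 FPKM in *bbx11-1* and 60.2 FPKM in *pif4-2*. *MLS*, the malate synthase gene used in seed oil breakdown, averaged 16.3, 17.0 and 6.71 FPKM. The closest to *BEE2* were *NRT1.8* (r = 0.981), AT3G13980 (r = 0.977) and AT1G63300 (r = 0.968), and the closest to *BEE1* were AT3G07730 (r = 0.961), *EDA40* (r = 0.955) and *AZI1* (r = 0.954). The closest to *PRE1*, the gene whose libraries lay below Col-0 in both mutants (narrowly in *bbx11-1*), were *ASG8* (r = 0.971), AT1G80940 (r = 0.969) and *NIT1* (r = 0.958).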

How the data were processed

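The authors mapped reads to TAIR10 with Hisat2 and counted reads per gene with HTSeq, and the deposited values are FPKM, 1 per gene and library, to 2 decimals. The gene lengths, the read total, the strand setting and the treatment of reads with several alignments are not given in the sources used here. The submitters' processing notes name edgeR 3.0.8, and the study's methods and the labels name different Illumina sequencers. The values were transformed to log2(FPKM + 0.5) and fitted with limma 3.58.1 in R 4.3.3 (intensity trend, 9 libraries, 6 residual degrees of freedom, Benjamini-Hochberg over 19169 genes). No count test was run, since the deposited values are not counts. The fold threshold of 2 follows the study. With 3 libraries against 3, an exact permutation test cannot give p below 0.1. Depth was estimated from genes under 500 nt, in which 75.7% to 81.0% of low values fell within 0.1 of a whole read (20% by chance). No read count was recovered for most genes.

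The sequences, positions and motifs came from the TAIR10.1 genome and RefSeq annotation, which held all 10 genes and 32835 of the 33602 loci. Whole-read matches used gene lengths as a free parameter for *PRE1*, *PRE4* and *PRE5*. Same-numbered libraries were checked for pairing by the correlation across genes of their deviations from the genotype means. It was 0.549, 0.287 and 0.275 for Col-0 with *bbx11-1*, which pairs them by the rule used here (each over 0.1), and between -0.01 and 0.09 for pairs with *pif4-2*. The fit with the replicate number as a block was an alternative. Python 3.11.15, pandas 2.3.3, Biopython 1.88 and matplotlib 3.10.9 were used. The 10 genes, the lists and the tests were chosen with earlier results of these data known. All 10 genes are named, with the genes of each list that passed (at most 4 by size) and the 3 closest patterns for each gene passing the F test. *BEE3*, *CIB1* and other list genes named without passing were picked after their values were seen. The same holds for the choice of *ENODL19* and *MLS*, among the closest patterns, as those whose levels are printed.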

Additional observations from a re-analysis of the deposited data

How the results depend on the processing

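Between 0 and 3 genes were called in *pif4-2* against Col-0 when single libraries were left out, against 1 as reported, falling to 0 without Col-0 replicate 2 or 3 or *pif4-2* replicate 1 or 2, and 3 without Col-0 replicate 1. The count was 5 with no fold threshold, 3 with a fold of at least 1.5 and 0 with a pseudocount of 1. For *bbx11-1* against *pif4-2* it was 0 as reported, 5 with no fold threshold, 3 with a fold of at least 1.5, 1 (*PRE4*) when only these genotypes were fitted, and 0 to 1 when single libraries were left out. The F test passed for 5 genes as reported, 1 with no filter, 3 with no intensity trend, and 1 to 7 when single libraries were left out (1 or 2 without a *pif4-2* library, 3 without Col-0 replicate 3 or *bbx11-1* replicate 2). Without replicate 1 of both Col-0 and *bbx11-1*, an alternative chosen after seeing the data, the counts were 3 for *pif4-2* against Col-0, 1 for *bbx11-1* against *pif4-2* and 8 for the F test. In *bbx11-1* against Col-0 no gene passed under any alternative.

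With the replicate number as a block, 1 gene (*PRE4*) was called in *bbx11-1* against *pif4-2* and 8 passed the F test, and at the adjusted p alone 7 genes passed in *pif4-2* against Col-0 (6.88% of tested genes), *PRE3* and *PRE4* being added. The block changed no call in *bbx11-1* against Col-0, the comparison in which the numbers pair the libraries.

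Signs turned only in *bbx11-1* against Col-0, where the log2 values were near 0. Quantile normalization gave -0.012 for *PRE6* and -0.0042 for *BEE2*. Without replicate 1 of both genotypes *PRE2* was at -0.23 and *PRE6* at -0.030. Leaving out single libraries gave -0.11 to 0.21 for *PRE2*, -0.42 to 0.068 for *PRE4*, -0.090 to 0.074 for *PRE6* and -0.070 to 0.063 for *BEE2*. Of the member values under the alternatives, 460 kept direction and side of the threshold, 58 lost the threshold, 10 gained it and 12 turned sign. The 460 include values that had not passed as reported, among them those of *bbx11-1* against Col-0, and such values had no threshold to lose. They therefore do not measure how stable the passing results were. The causes were not tested, except that the filter and leave-outs change the number of genes or libraries. The low levels of *PRE4* and *PRE5* limit what these libraries can show.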
